A study of Mus musculus with 8 samples.

Results

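Mouse embryonic fibroblasts (MEFs) labelled as Kdm3a knockouts were compared with wild-type (WT) MEFs after 12 h without glucose, using 2 libraries of each, which are 4 of the 8 libraries of the series. MEFs are cultured connective tissue cells taken from embryos of mice. All groups carried the C57BL/6 strain label and were at passages 3 to 5. The fed groups (0 h) were in DMEM and 10% serum. The starved groups spent 12 h in DMEM that lacked glucose and held 10% dialyzed serum. Dialysis also takes out other small molecules, so loss of glucose cannot be told apart from the change of serum or from the 12 h. Starvation below means all of these together. How the allele was made, how many embryos each label stands for and whether the replicates were separate cultures are not given in the labels, so each p-value reflects the spread of these libraries alone, which may be technical. The comparison asked which genes differ between the genotypes when glucose is withdrawn, in a study of how this demethylase bears on autophagy. The 4 libraries were chosen by their labels, and 14418 of 23366 gene symbols had enough counts to be tested.

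Kdm3a encodes a demethylase that takes methyl groups off lysine 9 of histone H3, a mark of silent chromatin, and its own gene responds to low oxygen. Cells that run short of glucose slow growth and protein synthesis, switch on stress programmes such as the unfolded protein response and the ATF4 pathway, and turn to autophagy, in which membranes close around cell contents and carry them to lysosomes to be broken down. Fibroblasts also keep a memory of the body site they came from in their Hox genes, secrete most of the collagen of connective tissue, and can answer foreign nucleic acid with interferon.

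The targeted gene was read in every library first. Levels are given in CPM, counts relative to the TMM-scaled library total, and they do not correct for gene length. Kdm3a stood at 176 and 185 CPM in the WT libraries after starvation, against 65.4 and 66.7 CPM in the KO-labelled ones. Both KO-labelled values lay below both WT values, a log2 fold change of -1.45 ± 0.041 (SE), with adjusted p = 3.74e-18 in edgeR's quasi-likelihood test with Benjamini-Hochberg adjustment. In fed cells the means were 56.2 CPM (WT) and 55.3 CPM (KO-labelled), and the log2 fold change of -0.02 did not pass the test. The effect of the label therefore differed between the conditions, by -1.43 on the log2 scale (starved minus fed, adjusted p = 1.79e-14). Counts over the whole transcript do not show whether an exon is missing: the other row of the gene held nearly the same reads, with 5724 and 5715 counts in the first starved WT library. The level of the transcript thus does not check the label in fed cells, and groups are called KO-labelled below.

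The lines also differed outside the targeted gene. Xist, which is made from the inactive X chromosome of female cells, stood at 1.54 and 0.939 CPM in starved WT libraries and at 1280 and 1370 CPM in starved KO-labelled ones. Of the Y-linked genes, Ddx3y was at 36.2 and 37.9 CPM in WT and at 0.0222 and 0.0189 CPM in KO-labelled cells, with the same pattern in Eif2s3y, Kdm5d and Uty. Genotype and the sex of the cells cannot be told apart in this design, and X and Y genes are named nowhere else. The median log2 difference of the tested genes also varied by chromosome. It was 0.63 on chromosome 1 (805 genes) and 0.72 on chromosome 7 (1073 genes), against -0.44 on chromosome 8 (769 genes) and -0.28 to 0.27 on the other chromosomes. In the fed libraries, which share no sample with the starved ones, the same medians were 0.65, 0.58 and -0.51. On chromosome 7, 67.3% of genes were higher in starved KO-labelled cells, and on chromosome 8, 56.2% were lower. DNA copy number was not measured here. The chromosome is given below beside genes of these 3 chromosomes, and its part in their values was not tested.

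**Figure D1:**
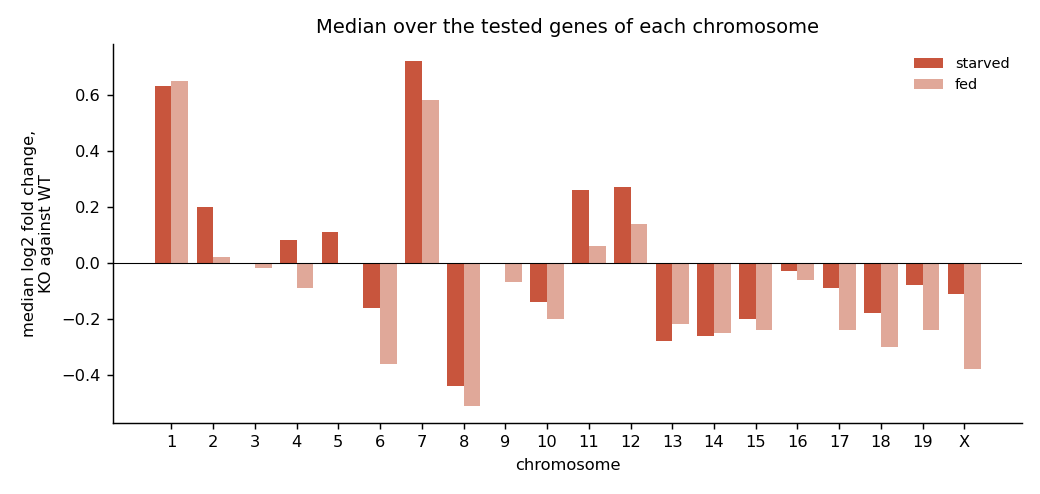
Median log2 fold change of KO-labelled against WT over the tested genes of each chromosome (horizontal axis), for starved libraries (dark bars) and fed libraries (light bars), n = 2 libraries per group. Chromosomes 1 and 7 stand above the rest and chromosome 8 below it in both conditions.

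Totals ran from 41019748 to 53602289 counts in the 4 starved libraries and from 38407520 over all 8. Replicates correlated across genes at r = 0.9911 to 0.9948, where genes are not independent replicates, and the common biological coefficient of variation was 0.0341. With so little spread, small differences passed the test: 79.6% of the tested genes were called at an adjusted p under 0.05, 6035 higher (41.9%) and 5435 lower (37.7%) in starved KO-labelled cells. Differences of more than 2-fold were called for 3145 genes higher (21.8%) and 1800 lower (12.5%). A single call is therefore common here, and sizes say more than calls. Scaling mattered as well. TMM assumes that most genes do not differ. With library totals in its place, the median over all genes moved by 0.32, from 0.07 to 0.39, and the share of calls that were higher went from 52.6% to 67.4% (7817 higher and 3778 lower). Directions of lists and genes that turn with this choice are stated where they occur. Counts given below with library totals stand beside those 7817 higher and 3778 lower of 14418 genes, not beside the TMM shares.

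Most of the large differences were also called in fed cells, where 74.4% of all genes were called. Of the 1800 genes lower by more than 2-fold when starved, 1417 (78.7%) were also called lower in fed KO-labelled cells, against 39.8% of all genes. Of the 3145 genes higher by more than 2-fold, 1985 (63.1%) were also called higher in fed cells, against 34.5% of all genes. In all, 7025 genes were called in the same direction in both conditions and 1952 in opposite directions. The difference between the starved and the fed effect was itself called for 64.5% of genes, with 34.1% higher and 30.4% lower when starved. It exceeded 2-fold for 15.4% (higher) and 6.57% (lower).

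**Figure D2:**
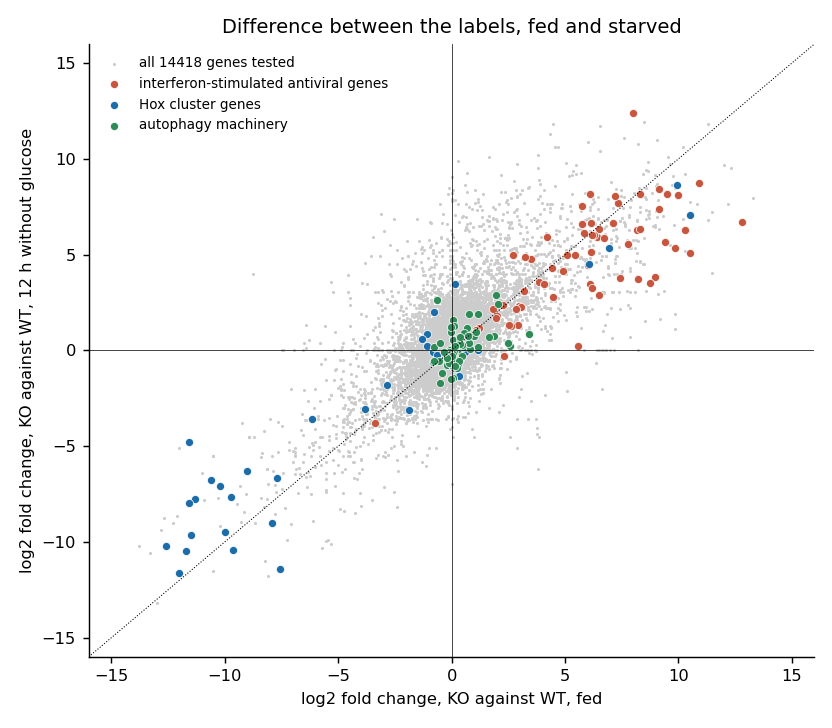
Log2 fold change of KO-labelled against WT in fed libraries (horizontal axis) and in starved libraries (vertical axis), 1 point per gene, n = 2 libraries per group; the dotted line marks equal values. Interferon-stimulated genes (red) lie at the upper right and most Hox genes away from the centre at the lower left, while autophagy genes (green) lie near the centre. Fitted values of genes with no counts in a group depend on the fit and are not bounds.

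Autophagy was the subject of the study. Of 66 tested members of the autophagy machinery, 34 were higher (51.5%, against 41.9% of all genes) and 26 lower (39.4%, against 37.7%) in starved KO-labelled cells, with a median log2 fold change of 0.14 beside 0.07 for all genes. As a list it therefore stood close to the background, and the named members went both ways. With library totals 42 were higher and 15 lower. By more than 2-fold, 9 of the 66 were higher and 4 lower, smaller shares than the 21.8% and 12.5% of all genes.

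The lower members included genes that mark and build the autophagosome. Map1lc3b, on chromosome 8, encodes the LC3B protein that coats the growing membrane, and it stood at 315 and 315 CPM in WT against 141 and 141 CPM in KO-labelled libraries. Sqstm1 encodes p62, the receptor that hands ubiquitin-tagged cargo to LC3, with 1780 and 1770 CPM in WT against 947 and 944 CPM. Each KO-labelled library lay below both WT libraries, with log2 fold changes of -1.16 ± 0.032 and -0.91 ± 0.025 (adjusted p = 2.75e-18 and 2.16e-18). Atg14, a subunit that directs the lipid kinase complex to sites of autophagosome formation, stood at 127 and 124 CPM in WT and at 44.9 and 46.3 CPM in KO-labelled cells. Fam134b, the receptor for autophagy of the endoplasmic reticulum, stood at 141 and 145 CPM against 51.8 and 50.4 CPM. Neither pair of groups overlapped, and the log2 fold changes were -1.46 ± 0.047 for Atg14 and -1.48 ± 0.045 for Fam134b (adjusted p = 3.28e-17 and 1.27e-17).

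The fed groups were close together for Atg14 and Fam134b. Fed means were 14.4 CPM (WT) and 15.1 CPM (KO-labelled) for Atg14, and 15.8 and 15.4 CPM for Fam134b, and neither differed by the test. The log2 effect of the label, starved minus fed, was -1.53 for Atg14, -1.45 for Fam134b, -1.13 for Sqstm1 and -0.74 for Map1lc3b (adjusted p = 3.93e-13, 5.64e-13, 2.16e-16 and 8.25e-12). Tfeb, the transcription factor that drives lysosomal genes, stood at 7.92 and 8.66 CPM in starved WT and at 2.33 and 2.82 CPM in starved KO-labelled cells, a log2 fold change of -1.68 ± 0.13, and was already lower in fed cells at -0.52.

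Other members were higher or nearly level. Trp53inp2, which brings LC3 out of the nucleus, stood at 3.41 and 3.39 CPM in starved WT and at 25.6 and 25.0 CPM in starved KO-labelled cells, a log2 fold change of 2.89, and it was also higher in fed cells at 1.97. Dram1 (2.40), Trp53inp1 (1.92) and Tmem41b on chromosome 7 (1.91) were higher too. Becn1, of the same lipid kinase complex as Atg14, stood at 119 and 121 CPM against 139 and 137 CPM, a log2 fold change of 0.20. Ulk1, which encodes the kinase at the start of the pathway, stood at 52.8 and 53.1 CPM against 59.8 and 55.5 CPM, and its adjusted p of 0.0339 was lost under 7 alternatives.

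**Figure D3:**
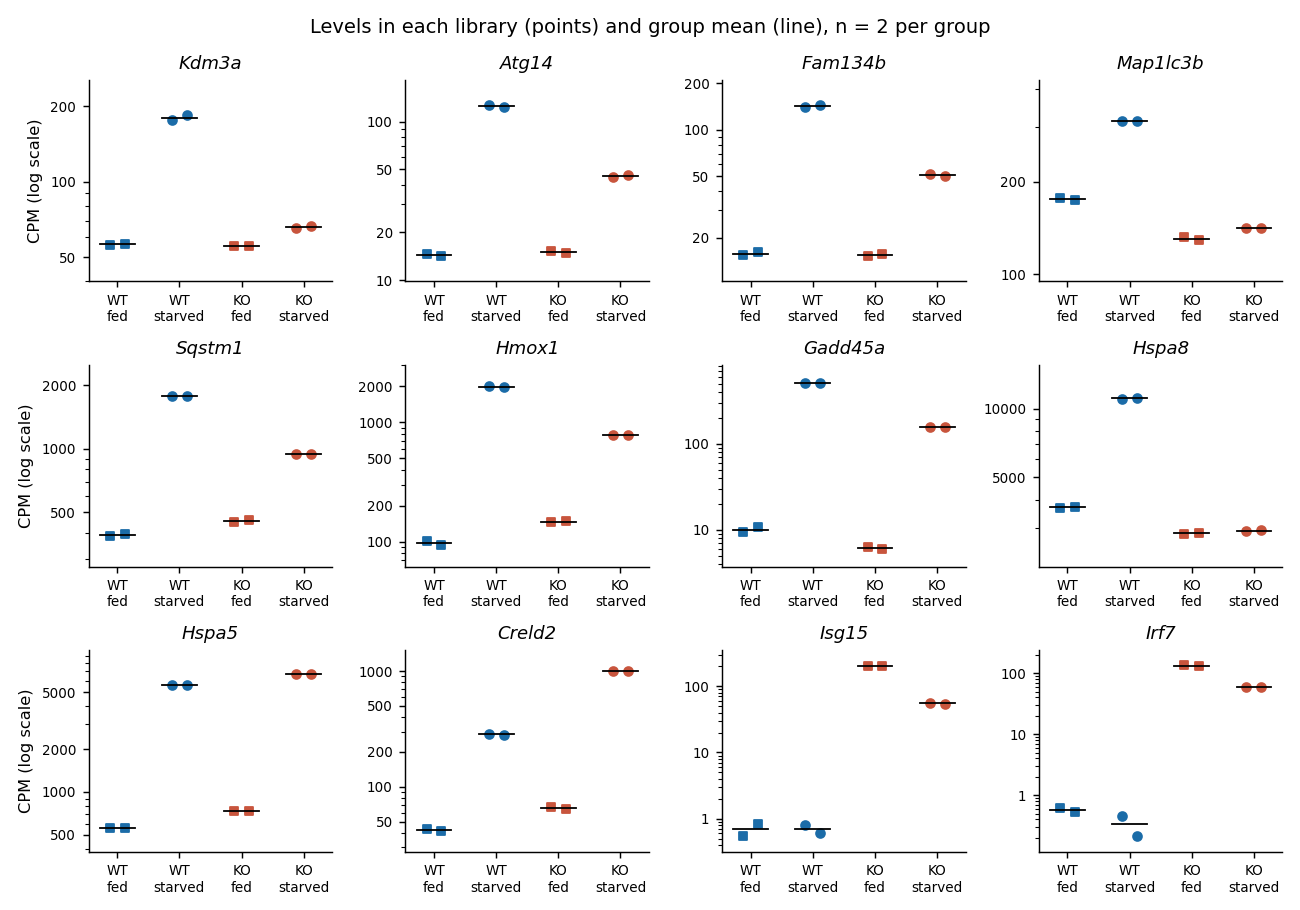
CPM on a log scale in each library for 12 genes; squares are fed and circles starved libraries, blue is WT and red KO-labelled, and lines are group means of 2 libraries. Kdm3a, Atg14 and Fam134b are level in the fed groups and highest in starved WT, while Isg15 and Irf7 are high in both KO-labelled groups. Hspa8 stands above the other groups in starved WT and Creld2 in starved KO-labelled libraries.

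Lysosomal genes went both ways, with 36 of 67 higher (53.7%, against 41.9% of all genes) and 26 lower (38.8%, against 37.7%). With library totals 46 were higher and 15 lower. Enzymes that break down heparan sulfate were among the largest differences: Naglu stood at 4.42 and 4.39 CPM in WT against 53.5 and 52.9 CPM in KO-labelled cells (log2 3.59), and Sgsh differed by 4.18. For Naglu the starved effect exceeded the fed one by 2.78 on the log2 scale (adjusted p = 7.94e-15). The protease gene Ctsh was lower at -2.78, and genes of the lysosomal membrane and its proton pump were among the lower members. Lamp1, on chromosome 8, stood at 3380 and 3170 CPM in WT against 1260 and 1240 CPM in KO-labelled cells (log2 -1.39). Mcoln1, the calcium channel of lysosomes on chromosome 8, and the pump subunit gene Atp6v1c1 were lower by about the same amount, at -1.05 and -1.03.

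Genes of the endoplasmic reticulum (ER), where secreted proteins fold, were mostly higher. Of 50 tested ER chaperone and unfolded protein response genes, 41 were higher (82%, against 41.9% of all genes) and 5 lower, with a median of 0.72, and without the genes of chromosomes 1, 7 and 8 the counts were 37 higher and 3 lower of 44. With library totals 45 were higher and 3 lower. Creld2, an ER protein with thiol isomerase activity, stood at 286 and 282 CPM in starved WT and at 997 and 994 CPM in starved KO-labelled cells, a log2 fold change of 1.81 ± 0.03. Ero1lb, an ER oxidase, stood at 31.8 and 31.3 CPM against 128 and 125 CPM (log2 2.00), and Os9 and Edem2, which help send misfolded proteins out of the ER, differed by 1.69 and 1.89. Hspa5, the main ER chaperone BiP, stood at 5580 and 5590 CPM against 6690 and 6720 CPM, a small log2 difference of 0.26 with groups that did not overlap. In fed cells the list had 30 members higher and 17 lower (34.5% and 39.8% of all genes were) and a median of 0.21.

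Not every gene of this response was higher. Herpud1, on chromosome 8, an ER membrane protein of the degradation pathway, stood at 718 and 714 CPM in WT against 255 and 252 CPM (log2 -1.50). Ddit3, the stress factor CHOP, stood at 1010 and 1000 CPM against 791 and 784 CPM (log2 -0.36), a call that was lost with library totals (-0.04).

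Promoters of several ER genes carry the ER stress element, CCAAT and CCACG with 9 free bases between them, which was searched on both strands in the RefSeq stretch of 300 bases that runs from 250 bases before to 50 after each gene start (build GRCm38.p6). It was found in 0.119% of 32851 promoters and in 22% of 41 promoters of 40 listed ER genes. All 9 genes with a match were called higher, with log2 fold changes from 0.24 (Calr on chromosome 8, and Syvn1) to 2.00 (Ero1lb), beside 82% of the list as a whole. The stretches of 3 of them are printed to show the element, in capitals, in both of its orientations. Those of Hspa5 (chr2:34771994-34772073, plus strand), Creld2 (chr15:88819489-88819568, plus strand) and Ero1lb (chr13:12565651-12565730, plus strand) read as follows.
Hspa5: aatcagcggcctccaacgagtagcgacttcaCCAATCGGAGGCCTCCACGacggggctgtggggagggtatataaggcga
Creld2: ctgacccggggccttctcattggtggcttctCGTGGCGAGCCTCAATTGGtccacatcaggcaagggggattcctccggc
Ero1lb: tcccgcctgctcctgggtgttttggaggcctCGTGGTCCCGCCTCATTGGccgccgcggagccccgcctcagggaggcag
The first base of the element lay 65 bases before the start of Hspa5, 126 before that of Creld2 and 201 before that of Ero1lb. A match is a description of the letters and does not show that a factor binds there.

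Calls in the cytosolic heat shock response leaned the other way, but large differences went both ways. Of 34 tested members, 21 were lower (61.8%, against 37.7% of all genes) and 12 higher (35.3%, against 41.9%), with a median of -0.63. By more than 2-fold, 10 were higher and 9 lower, beside 21.8% and 12.5% of all genes. With library totals 17 were lower and 13 higher. The abundant chaperones were lower: Hspa8, the constitutive Hsp70, stood at 11100 and 11200 CPM in starved WT and at 2900 and 2950 CPM in starved KO-labelled cells, and Hsp90ab1 stood at 9070 and 9270 CPM against 2390 and 2380 CPM. All 4 KO-labelled values lay far below the WT values of their gene, with log2 fold changes of -1.93 ± 0.021 and -1.94 ± 0.022 (adjusted p = 6.72e-25 and 8.31e-25). Fed means of Hspa8 were 3700 and 2840 CPM, a log2 fold change of -0.38, so the starved effect was lower by 1.55 (starved minus fed -1.55, adjusted p = 9.06e-20). Hsph1 (-1.69) and Hspa4l (-1.57), partners of Hsp70, were lower when starved and slightly higher when fed (0.21 and 0.24). By contrast, Cryab, the alpha-crystallin B chain, stood at 31.3 and 30.6 CPM against 124 and 130 CPM (log2 2.04). Hspa8 and Hsp90ab1 have processed copies in the genome, and how reads with several matches were counted is not given in the sources used here.

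The heat shock element, searched on both strands as the blocks GAA, TTC and GAA with 2 free bases between neighbours, was found in 0.603% of promoters and in 12.5% of 40 promoters of 28 listed members. All 4 genes with a match (Hsph1, Chordc1, Hspe1 and Hspd1) were called lower, with log2 fold changes from -1.69 to -0.32, beside 61.8% of the list and 37.7% of all genes. Hspe1 and Hspd1, on chromosome 1, encode the subunits of the mitochondrial chaperonin and lie head to head, so their matches are the same sites, and Hspe1 is shown for that reason, chosen after its value was seen (chr1:55088028-55088107, plus strand, GRCm38.p6). The capitals mark a pair of overlapping matches that start 89 and 84 bases before the gene start.
Hspe1: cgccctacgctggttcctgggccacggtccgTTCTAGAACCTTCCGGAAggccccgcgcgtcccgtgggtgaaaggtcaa

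ATF4 target genes, which supply amino acids under stress, were lower more often than higher, but this turned with the scaling. Of 54 members, 31 were lower (57.4%, against 37.7% of all genes) and 17 higher (31.5%, against 41.9%), with a median of -0.20. With library totals 18 were lower and 29 higher, with a median of 0.12. Both medians lay below that of all genes on the same scale, 0.07 and 0.39. Slc38a2, an amino acid importer, stood at 540 and 554 CPM in WT against 190 and 189 CPM (log2 -1.53). Chac1, which breaks down glutathione, stood at 245 and 241 CPM against 117 and 114 CPM (log2 -1.07). Chac1 was level in fed cells (8.67 and 8.49 CPM), and its effect differed between the conditions by -1.04 (adjusted p = 2.12e-10). Mthfd2, an enzyme of mitochondrial folate metabolism, was lower by the same log2 value of -1.05 in both conditions. Gdf15, a stress-induced secreted factor on chromosome 8, stood at 1.26 and 1.18 CPM against 16.6 and 13.7 CPM (log2 3.63). The composite element read by ATF4, TGATGNAA, was found in 3.97% of promoters and in 31.5% of 54 list promoters, of 17 members of which 10 were lower and 5 higher.

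Antioxidant and DNA damage genes went both ways. Of 52 genes of NRF2, glutathione and peroxide defence, 26 were lower (50%, against 37.7% of all genes) and 21 higher (40.4%, against 41.9%). With library totals 16 were lower and 24 higher, and the median went from -0.20 to 0.11, beside 0.07 and 0.39 for all genes. Hmox1 on chromosome 8, the haem-degrading enzyme, stood at 1990 and 1970 CPM in WT against 775 and 776 CPM (log2 -1.35), while it was higher by 0.59 in fed cells, a difference of -1.94 (adjusted p = 2.19e-18). Gsta4, a glutathione transferase, differed by -4.32 and Sod3, the secreted superoxide dismutase, by 3.81. Among 42 p53 targets and cell-cycle inhibitors, 23 were higher (54.8%, against 41.9% of all genes) and 16 lower (38.1%, against 37.7%). Cdkn1a, which encodes the inhibitor p21, stood at 74.6 and 73.2 CPM against 326 and 318 CPM (log2 2.13), and Btg2 on chromosome 1 differed by 4.39. Cdkn2a, the senescence locus for p16 and ARF, stood at 326 and 313 CPM against 77.7 and 71.4 CPM (log2 -2.10). The growth arrest genes Gadd45a (512 and 505 CPM against 159 and 157 CPM, log2 -1.69) and Gadd45g (log2 -2.02) were lower. For Gadd45g the fed effect had the opposite sign, 1.24, and the difference was -3.26 (adjusted p = 1.56e-19).

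The interferon response was among the most one-sided lists. Interferon-stimulated genes encode proteins that block viruses, and cells hold them low until interferon binds its receptor and transcription factors are carried into the nucleus. Of 66 tested interferon-stimulated antiviral genes, 63 were higher in starved KO-labelled cells (95.5%, against 41.9% of all genes) and 2 lower, and 62 were higher by more than 2-fold (21.8% of all genes). The median log2 fold change was 4.99, or 4.39 with the 5 members at 0 counts in both WT libraries set to the bound that 3 counts per library allow. Without the genes of chromosomes 1, 7 and 8, 56 of 58 were higher. The list was also high in fed cells, with 64 members higher and a median of 6.05.

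Isg15, a ubiquitin-like antiviral modifier, stood at 0.798 and 0.606 CPM in starved WT and at 55.4 and 54.2 CPM in starved KO-labelled cells. Bst2, on chromosome 8, the tetherin that holds budding viruses at the cell surface, stood at 7.37 and 7.97 CPM against 274 and 271 CPM. The groups were far apart, with log2 fold changes of 6.28 ± 0.10 and 5.15 ± 0.05 (adjusted p = 7.39e-22 and 1.02e-25). Rsad2, which encodes viperin, had no count in either starved WT library and stood at 13.8 and 15.3 CPM in KO-labelled ones, at least 159-fold higher than 3 counts per library. Oas1a, which makes the messenger that activates RNase L, stood at 0.154 and 0.0606 CPM against 46.2 and 47.8 CPM, 439-fold, though its near-identical neighbours could share reads. Usp18, which removes ISG15 and dampens the receptor, stood at 0.0921 and 0.0606 CPM against 28 and 27.1 CPM, a ratio of 361 (95% interval 154 to 1110, counting error only).

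In the group means of KO-labelled cells Isg15 was lower when starved than when fed, a contrast that was not tested here. Isg15 averaged 200 CPM in fed and 54.2 to 55.4 CPM in starved KO-labelled libraries. The effect of the label was smaller when starved by 1.88 for Isg15 (starved minus fed -1.88, adjusted p = 5.78e-06). For Irf7, the factor that amplifies interferon production, on chromosome 7, the difference of -0.37 did not pass the test (adjusted p = 0.397), with 0.461 and 0.212 CPM in starved WT against 60.4 and 59.9 CPM.

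The regulators and the antigen presentation genes were mostly higher. Of 26 nucleic acid sensors and adaptors, 22 were higher (84.6%, against 41.9% of all genes). Among them were Ifi204 (4.14) and Ifi205 (3.32), DNA sensors of chromosome 1, and Ddx58 (3.08), the RNA sensor RIG-I. The lists share members, so their counts are not separate: Ddx58 is also in the antiviral list, and Irf7 is in the sensor list and that of IRF and STAT factors. Without chromosomes 1, 7 and 8 the count fell to 13 higher of 17 and the median from 2.26 to 1.26. Mb21d1, the DNA sensor cGAS, went against them, at 21.2 and 21.7 CPM in WT against 7.49 and 8.30 CPM (log2 -1.44). Among 25 genes of MHC class I and the immunoproteasome, which cut and present peptides to T cells, 24 were higher (96%) with a median of 3.83. Tap1, a peptide transporter of the ER, stood at 0.307 and 0.0909 CPM against 54.1 and 52.7 CPM (log2 8.05). The exception, Psmb10 on chromosome 8, stood at -0.22, was not called without the first KO-labelled library (-0.19) and turned to 0.10 with library totals. Of 21 IRF and STAT factors and interferon receptors, 14 were higher (66.7%) and 4 lower (19%, against 37.7% of all genes) with a median of 0.49. The lower ones were Irf2 on chromosome 8 (-0.70) and Jak1 (-0.43), which stayed lower with library totals (-0.38 and -0.12), and Jak2 (-0.30) and Ifnar2 (-0.14), which turned to 0.02 and 0.18.

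The letters shared by interferon-stimulated promoters are a pair of GAAA blocks with 2 free bases between them, found on either strand in 3.44% of promoters and in 54.2% of 59 promoters of this list. Of the 28 members with a match, 26 were called higher and 1 lower, beside 63 of 66 in the whole list. The stretches of 4 named genes show the core in capitals, in overlapping repeats where 2 or 3 matches follow each other. They come from Isg15 (chr4:156200846-156200925), Bst2 (chr8:71537555-71537634), Rsad2 (chr12:26456528-26456607) and Oas1a (chr5:120907526-120907605), all on the minus strand of GRCm38.p6 and written in the direction of the gene.
Isg15: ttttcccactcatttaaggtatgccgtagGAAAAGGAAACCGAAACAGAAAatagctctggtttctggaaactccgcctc
Bst2: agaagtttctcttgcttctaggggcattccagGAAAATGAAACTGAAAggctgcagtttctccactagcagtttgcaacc
Rsad2: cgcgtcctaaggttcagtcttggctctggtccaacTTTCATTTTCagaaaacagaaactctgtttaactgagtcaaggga
Oas1a: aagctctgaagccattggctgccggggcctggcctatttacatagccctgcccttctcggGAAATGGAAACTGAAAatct
In Rsad2 the match is on the other strand. The first matched base lay 78, 130, 120 and 20 bases before the gene start in Isg15, Bst2, Rsad2 and Oas1a.

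**Figure D4:**
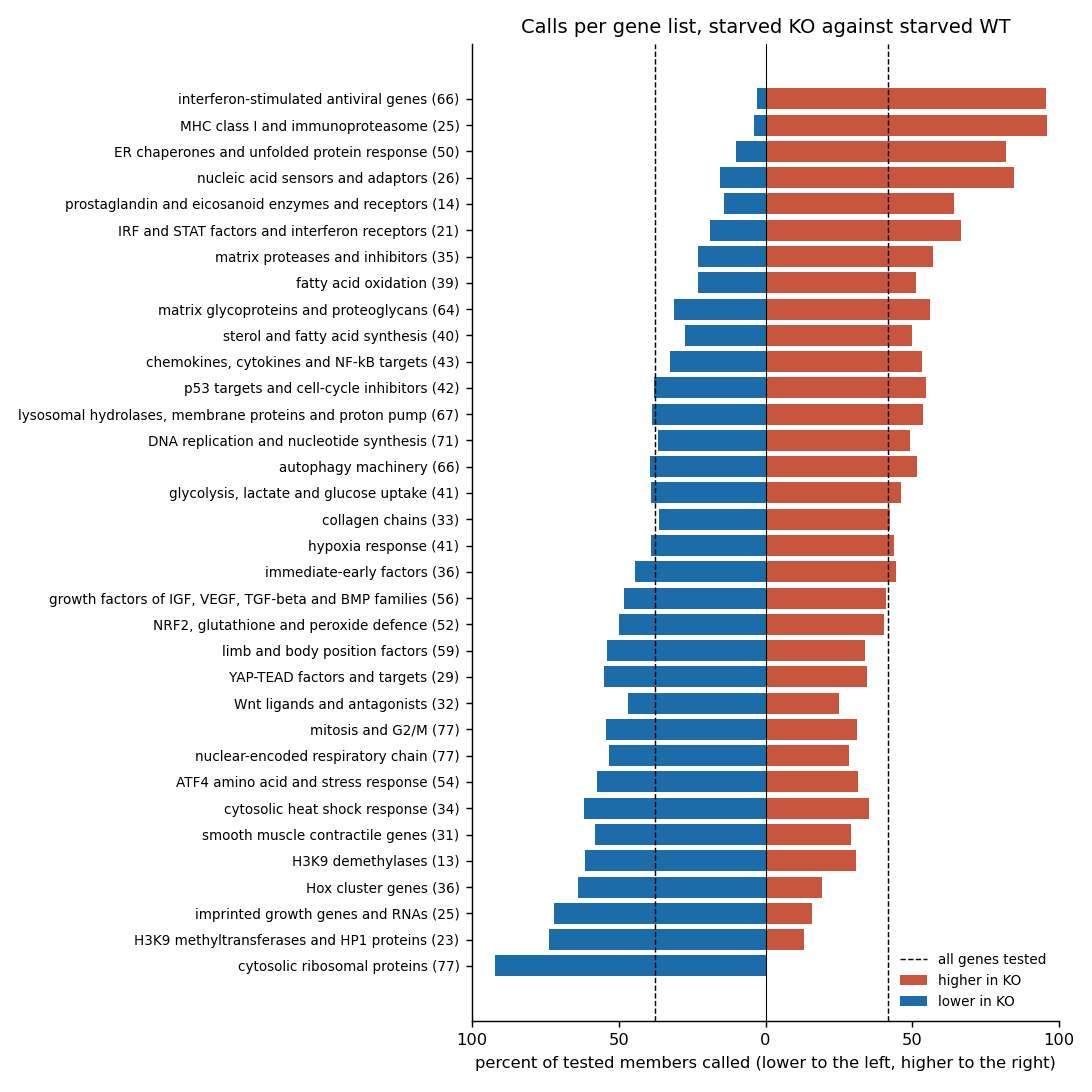
Percent of the tested members of each list (number in brackets) called higher (red, to the right) or lower (blue, to the left) in starved KO-labelled against starved WT cells, n = 2 libraries per group; dashed lines mark all genes tested, 41.9% and 37.7%. Interferon and MHC class I lists reach over 95% higher, and ribosomal proteins 92.2% lower.

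Fibroblast and matrix genes differed in both directions. Among the 16 fibroblast markers, 8 were higher (50%, against 41.9% of all genes) and 7 lower (43.8%, against 37.7%). Their summed level was 22400 and 23500 CPM in starved WT against 15600 and 15700 CPM in starved KO-labelled cells. Vim alone, at 11400 and 11300 CPM against 4300 and 4290 CPM, had a gap about as large as that of the sums. Col1a1 and Col1a2, which encode the chains of type I collagen and are usually made together, went in opposite directions. Col1a1 stood at 240 and 255 CPM in starved WT against 698 and 688 CPM (log2 1.49 ± 0.029), and Col1a2 at 353 and 381 CPM against 36.2 and 36.4 CPM (log2 -3.34 ± 0.036). In fed cells Col1a1 was lower in KO-labelled cells, with means of 4660 and 1700 CPM, so its effect turned between the conditions by 2.94 (adjusted p = 8.3e-22).

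Other matrix genes separated the groups more. Postn, a matricellular protein of wound and tumour stroma, stood at 779 and 811 CPM in WT against 11.7 and 11.3 CPM (log2 -6.11), and Thy1, a surface marker of fibroblast subsets, at 166 and 163 CPM against 4.72 and 5.61 CPM (log2 -4.98). Dcn, the collagen-binding proteoglycan decorin, stood at 1.66 and 2.36 CPM against 38.3 and 38.6 CPM (log2 4.25). Col10a1, a collagen known from growth plate cartilage, stood at 14.7 and 14.9 CPM against 657 and 662 CPM (log2 5.48), while Col2a1, the main cartilage collagen, stood at 110 and 113 CPM against 0.177 and 0.246 CPM (log2 -9.01). All of these differed in the same direction in fed cells. As lists, 14 of 33 collagens were higher (42.4%, against 41.9% of all genes) and 12 lower (36.4%, against 37.7%), close to the background. Without chromosomes 1, 7 and 8 the collagen counts were 8 higher and 10 lower. Of 64 matrix glycoproteins, 36 were higher (56.2%) and 20 lower (31.2%). Matrix proteases and their inhibitors had 20 of 35 higher (57.1%) and 8 lower (22.9%). The collagenase Mmp13 (4.59) and the stromelysin Mmp3 (6.90) were among the higher ones, whereas Timp3, an inhibitor of such proteases, was lower at -2.18.

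Contractile genes of smooth muscle and myofibroblasts were mostly lower. Of 31, 18 were lower (58.1%, against 37.7%) and 9 higher, while with library totals 16 were lower and 14 higher. Acta2, alpha smooth muscle actin, stood at 1790 and 1790 CPM in starved WT and at 334 and 330 CPM in starved KO-labelled cells (log2 -2.43 ± 0.025). Tagln, an actin-binding protein, stood at 2860 and 2800 CPM against 405 and 414 CPM (log2 -2.79 ± 0.027). Both gaps were larger in fed cells, at -4.81 and -3.81, and the differences of 2.38 and 1.02 passed the test (adjusted p = 1.8e-21 and 4.57e-15). Cnn1 (-4.11) and Actg2 (-4.15) were lower too, whereas Csrp1 on chromosome 1 was higher at 1.35. Of the targets of YAP and TEAD, which report tension, Ankrd1 stood at 192 and 196 CPM against 3.10 and 3.12 CPM (log2 -5.96), and Ctgf was lower by 1.87 on the log2 scale when starved and higher by 0.51 when fed. The list had 16 of 29 lower (55.2%, against 37.7% of all genes) and 10 higher (34.5%, against 41.9%), and 13 lower and 12 higher with library totals.

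Secreted signals followed no single direction. Among 43 chemokines, cytokines and NF-kB targets, 23 were higher (53.5%, against 41.9% of all genes) and 14 lower (32.6%, against 37.7%). Without chromosomes 1, 7 and 8 the counts were 15 higher and 14 lower. Lcn2, an iron-binding acute phase protein, stood at 12.4 and 13.1 CPM against 411 and 400 CPM (log2 4.99), and complement C3 was higher by 3.14. Cxcl12, a chemokine of stromal cells, stood at 240 and 252 CPM against 8.73 and 8.75 CPM (log2 -4.81). Ptgs1, a cyclooxygenase, stood at 3.38 and 3.60 CPM against 39.2 and 40.5 CPM (log2 3.51), while Ptgs2, its inducible relative on chromosome 1, stood at 872 and 884 CPM against 932 and 952 CPM, a difference (log2 0.10) that lost its call without either WT library (0.03 and 0.04).

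Among the genes that record body position, the Hoxb and Hoxc clusters and the distal Hoxd genes differed most. Hox genes lie in 4 clusters, and cells of the trunk and limbs use different stretches of them. All 8 tested Hoxb and all 9 tested Hoxc genes were lower in starved KO-labelled cells, against 37.7% of all genes. Their fitted medians were -8.33 and -7.96, or -6.56 and -3.60 with genes at 0 counts in both KO-labelled libraries set to their bound. Hoxb9 stood at 52.5 and 48.9 CPM in WT against 0.266 and 0.472 CPM (log2 -7.06 ± 0.13). Hoxc10 stood at 32.2 and 28.8 CPM against 0.0443 and 0 CPM, a ratio of 1490 (95% interval 413 to 12300). Hoxc9 and Hoxc11 had no count in KO-labelled libraries and were at least 119-fold and 141-fold lower.

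The Hoxd cluster ran the other way at its distal end. Hoxd13, which patterns hands and feet and the genital tubercle, stood at 0.399 and 0.0606 CPM in WT and at 91.9 and 93.3 CPM in KO-labelled cells (log2 8.64 ± 0.13), and Hoxd11 at 0.798 and 0.576 CPM against 15.6 and 15.4 CPM (log2 4.49). Of 8 tested Hoxd genes 3 were higher and 3 lower (41.9% and 37.7% of all genes were), the lower ones being Hoxd3 (-3.06), Hoxd4 (-1.82) and Hoxd9 (-3.11). Hoxa13 was higher as well, at 0.0614 and 0.0606 CPM against 2.48 and 2.78 CPM. In the Hoxa cluster, 4 of 11 genes were higher and 3 lower, beside the same shares of all genes. Hoxa3 (2.00) and Hoxa5 (0.88), at low levels, were also among the higher ones, and both were lower in fed cells (-0.79 and -1.08). Hoxa10 and Hoxa11 stood between 8.96 and 17.8 CPM in all 4 libraries, with log2 fold changes of -0.91 (lower) and -0.11 (not called). The same Hoxb, Hoxc and Hoxd13 differences were present in fed cells.

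**Figure D5:**
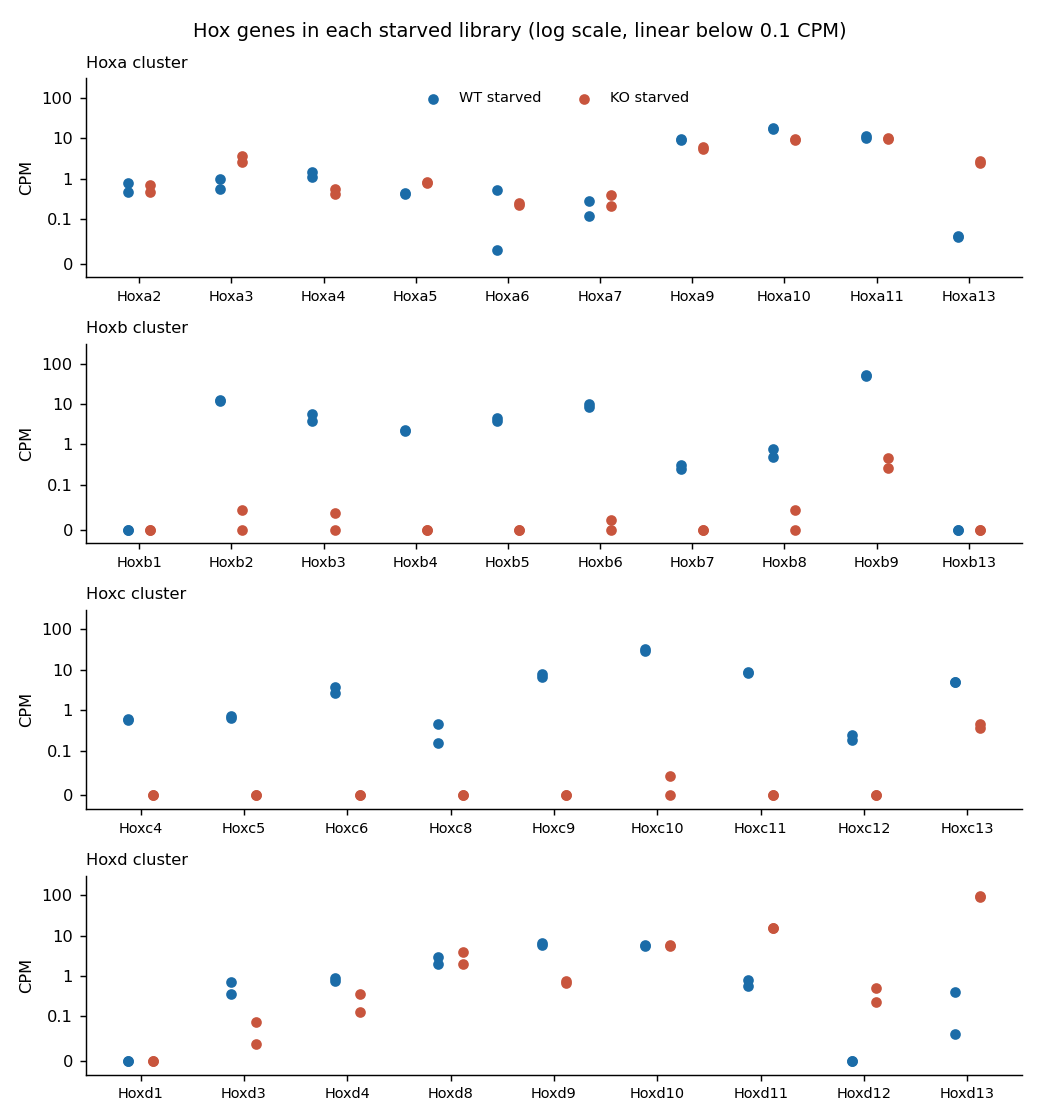
CPM of Hox genes in the 2 starved WT (blue) and 2 starved KO-labelled (red) libraries, by cluster and position number, on a log axis that is linear below 0.1 CPM. Hoxb and Hoxc genes are at or near 0 in KO-labelled libraries, and Hoxd11 to Hoxd13 and Hoxa13 are higher in them. Hoxa3 and Hoxa5 are also higher, at low levels, and Hoxa9 to Hoxa11 differ by less than 2-fold.

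Other patterning genes differed in both directions. Of 59 limb and body position factors, 20 were higher (33.9%, against 41.9% of all genes) and 32 lower (54.2%, against 37.7%). Tfap2a, a factor of neural crest and skin, stood at 0 and 0.0303 CPM in WT and at 14.0 and 12.9 CPM in KO-labelled cells, a ratio of 879 (95% interval 157 to 34700). Gata4 stood at 0.184 and 0.212 CPM against 41.1 and 40.4 CPM (log2 7.66) and Lhx2 at 0.123 and 0 CPM against 16.3 and 15.8 CPM. Shox2 (-5.51), Irx1 (-5.44) and Irx2 (-4.14), homeobox genes of limb and other tissues, were lower. Among 25 imprinted growth genes, 18 were lower (72%, against 37.7%) and 4 higher. Meg3, a maternally expressed RNA, stood at 16.7 and 18.0 CPM against 0.0222 and 0.0378 CPM, and its neighbour Dlk1 at 34.5 and 37.3 CPM against 0.599 and 0.283 CPM. Igf2, the embryonic growth factor, on chromosome 7, stood at 21.2 and 20.4 CPM against 0.155 and 0.340 CPM (log2 -6.33). Plagl1, an imprinted zinc finger factor, was higher, at 27.7 and 29.4 CPM against 160 and 152 CPM.

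Wnt and growth factor genes included some of the largest falls. Wnt10b, a Wnt ligand of limb and skin, stood at 26.7 and 25.9 CPM in WT and at 0 and 0.0189 CPM in KO-labelled cells, a ratio of 2580 (95% interval 462 to 102000). Sfrp2, a secreted Wnt modulator, stood at 111 and 111 CPM against 3.30 and 3.40 CPM (log2 -5.05). Rspo2, which strengthens Wnt signals, was lower when starved at -3.48 but not different by the test when fed at -0.16. As lists, 15 of 32 Wnt genes were lower (46.9%, against 37.7% of all genes) and 8 higher (25%, against 41.9%). Of 56 growth factors 27 were lower (48.2%) and 23 higher (41.1%). The medians of the 2 lists were -0.18 and -0.19 and became 0.13 and 0.13 with library totals. On both scales they lay below the medians of all genes, 0.07 and 0.39.

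Ribosomal protein genes were lower almost as a block. Of 77 tested, 71 were lower (92.2%, against 37.7%) and 6 were not called, with a median of -0.79, and with library totals 59 were lower and 14 higher with a median of -0.48. Rps2 stood at 7210 and 6980 CPM in starved WT against 2930 and 2880 CPM (log2 -1.29), and Rps12 at 3540 and 3450 CPM against 1330 and 1360 CPM (log2 -1.38). In fed cells 59 were lower (39.8% of all genes were) and 12 higher. Reads of these genes can be shared with processed copies, so single values are uncertain.

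Genes of energy metabolism went both ways. Respiratory chain genes were lower in 41 of 77 (53.2%, against 37.7% of all genes) and higher in 22 (28.6%, against 41.9%) with TMM. With library totals they were higher in 40 and lower in 26. Their median was -0.20 with TMM and 0.12 with library totals, below the 0.07 and 0.39 of all genes. Named members differed by at most 1.14 on the log2 scale, as for the ATP synthase subunit Atp5c1 (300 and 291 CPM against 134 and 133 CPM). Of 41 glycolysis, lactate and glucose uptake genes, 19 were higher (46.3%) and 16 lower (39%), close to the shares of all genes. Pfkfb3, which raises the main activator of glycolysis, stood at 32.5 and 38.3 CPM against 9.22 and 8.69 CPM (log2 -1.98) and was slightly higher in fed cells at 0.28. Ldhb (-3.02) and Pdk4 (-3.67) were lower and the lactate exporter Slc16a3 was higher (3.27). Txnip, whose transcript falls when glucose is short, stood under 1 CPM in all 4 starved libraries and did not pass the test (log2 0.80, adjusted p = 0.0741), though it did under 4 alternatives, among them without the second WT library (1.24) and without the second KO-labelled library (1.10), against fed means of 47.8 and 59.5 CPM. In the hypoxia list 18 of 41 were higher (43.9%) and 16 lower (39%), also close to the shares of all genes. Bhlhe40, a hypoxia-responsive repressor, stood at 104 and 97.8 CPM against 43.3 and 42.9 CPM and, like Kdm3a, was level when fed (-0.01). In sterol and fatty acid synthesis 20 of 40 genes were higher (50%, against 41.9% of all genes) and 11 lower, and in fatty acid oxidation 20 of 39 were higher (51.3%) and 9 lower. Scd2, a desaturase, was higher at 1.94 when starved and lower at -0.81 when fed.

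Cell cycle genes went both ways. In mitosis, 42 of 77 genes were lower (54.5%, against 37.7% of all genes) and 24 higher (31.2%, against 41.9%) with a median of -0.22. With library totals these became 32 lower, 36 higher and 0.09. The medians of all genes on the 2 scales were 0.07 and 0.39. Kif18a, a mitotic kinesin, stood at 40.7 and 41.9 CPM against 9.51 and 10.3 CPM (log2 -2.05), while the mitotic kinase gene Aurkb stood at 9.46 and 7.91 CPM against 34.1 and 33.8 CPM (log2 1.97). Among 71 DNA replication genes, 35 were higher (49.3%) and 26 lower (36.6%). The loading factor Cdc6 stood at 8.97 and 10.2 CPM against 54.3 and 56.9 CPM (log2 2.53), and Mcm2 of the replicative helicase was lower at -0.85. Mki67, a marker of cycling cells on chromosome 7, stood at 49.0 and 52.7 CPM against 83.1 and 87.1 CPM (log2 0.74). Among immediate-early factors, 16 of 36 were higher and 16 lower (44.4% each, against 41.9% and 37.7% of all genes). Without chromosomes 1, 7 and 8 the counts were 10 higher and 13 lower of 26. Myc stood at 187 and 195 CPM against 64.2 and 64.0 CPM (log2 -1.58).

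Other enzymes of the H3K9 mark differed as well. Of 13 H3K9 demethylase genes, with Kdm3a itself among them, 8 were lower (61.5%, against 37.7% of all genes) and 4 higher (30.8%, against 41.9%). By more than 2-fold, 4 were higher (21.8% of all genes were) and 2 lower (12.5%), the lower ones being Kdm3a and Kdm4c. Of the 13, 1 had no count in either starved WT library. Kdm4c stood at 61.4 and 64.6 CPM in WT against 30.0 and 30.2 CPM (log2 -1.07), and Jhdm1d stood at 17.4 and 16.3 CPM against 39.5 and 43.3 CPM (log2 1.3). Among 23 genes of H3K9 methyltransferases, HP1 proteins, their partners and enzymes of DNA methylation (such as Dnmt3a, 0.54, and Tet3, -0.76), 17 were lower (73.9%, against 37.7%) and 3 higher, with 9 lower and 5 higher under library totals, and 1 higher without the first WT library. Ehmt2, which encodes the methyltransferase G9a, stood at 387 and 394 CPM against 173 and 172 CPM (log2 -1.18), and its partners Ehmt1 (-0.77) and Wiz (-0.99) were lower with it.

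Genes with the largest rises and falls were named by a rule of size and level, described with the processing. Beside the interferon, Hox and patterning genes above, the rises held Cd40, a TNF receptor family member that stood at 0 and 0.0606 CPM in WT against 20 and 18.9 CPM. Syt7, a calcium sensor of lysosome exocytosis, stood at 0.0614 and 0.0303 CPM against 31.7 and 32.0 CPM. Raet1d, a ligand of a natural killer cell receptor with near-identical copies, stood at 0.0307 and 0.0303 CPM against 13.9 and 15.8 CPM. Myh14, a non-muscle myosin of chromosome 7, and Sgsm1, a regulator of small GTPases, had no count in starved WT and were at least 111-fold and 119-fold higher. Slc6a12, a betaine transporter, rose from 0 and 0.121 CPM to 20.9 and 19.6 CPM.

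The falls held Stmn2, a microtubule regulator best known from neurons, at 227 and 215 CPM in WT against 0.399 and 0.472 CPM (log2 -8.97 ± 0.077). Adcy1, an adenylyl cyclase, stood at 39.0 and 43.5 CPM against 0.0887 and 0.0756 CPM, and Wbscr17, a glycosyltransferase, at 35.5 and 35.8 CPM against 0.0443 and 0.170 CPM. Ptn, the growth factor pleiotrophin (-7.74), the amino acid transporter gene Slc38a4 (-7.72) and the engulfment receptor gene Megf10 (-6.65) completed them with Col2a1, Hoxb2, Hoxb9, Hoxc10, Meg3 and Wnt10b. For Adcy1, Wbscr17 and Megf10 the gap was wider in starved than in fed cells (starved minus fed -2.81, -3.34 and -2.33; adjusted p = 0.000236, 4.62e-06 and 0.000857). These sizes rest on few counts in the starved KO-labelled libraries: 4 and 4 for Adcy1, 2 and 9 for Wbscr17 and 8 and 8 for Megf10.

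Markers of other cell types were read beside these results. Blood markers Ptprc, Emr1, Itgam, Tyrobp, Cd3e and Hbb-b1 were at 0 in all 4 starved libraries, and the list summed to 7.03 and 10.3 CPM in WT against 53.8 and 54.8 CPM in KO-labelled cells, of which Cd68, a lysosomal protein, gave 40.9 and 40.7 CPM. All 5 tested members of that list were higher, among them Csf1r (0.829 and 1.82 CPM against 6.03 and 6.42 CPM) and Cd14 (2.70 and 4.33 CPM against 5.90 and 6.69 CPM). Their part in the interferon differences was not tested. The 9 endothelial markers summed to 55.5 and 53.2 CPM against 7.07 and 6.80 CPM. Kdr gave nearly all of the WT sums (54.8 and 52.8 CPM) and 4.88 and 4.76 CPM of the KO-labelled ones. It was the 1 lower member of 5 tested, while 3 were higher at low levels, and Tie1, Emcn and Cldn5 were at 0. Neural and glial markers summed to 233 and 223 CPM against 3.46 and 3.85 CPM, with 1 of 4 tested members higher and 2 lower. Stmn2 gave nearly all of the WT sums, and Tubb3 (chromosome 8) most of the KO-labelled ones, at 2.17 and 2.78 CPM, with Sox10, Elavl3, Snap25 and Olig2 at 0. Cartilage and bone markers summed to 230 and 245 CPM against 59.9 and 59.4 CPM, with Col9a1 at 0. Col2a1 and Runx2 (112 and 123 CPM against 40.9 and 39.5 CPM) carried the WT sums. Of 6 tested members 3 were lower and 2 higher. The higher ones were Sox9 (6.72 and 7.03 CPM against 14.1 and 14 CPM) and Alpl (0.123 and 0.121 CPM against 4.17 and 5.12 CPM). Pericyte and smooth muscle markers summed to 4870 and 4820 CPM against 879 and 889 CPM, carried by Acta2, Tagln and Cnn1, with Kcnj8 at 0. Of 9 tested members 4 were higher and 4 lower, and Cspg4 (25.1 and 27.1 CPM against 116 and 120 CPM) and Notch3 (1.57 and 1.61 CPM against 10.3 and 11.3 CPM) were among the higher ones. Epithelial markers summed to 21.4 and 22.3 CPM against 4.59 and 4.50 CPM with Esrp1 at 0. Krt19 (18.6 and 19.5 CPM against 2.06 and 3.02 CPM) gave most of the WT sums, and of 4 tested members 2 were lower and 1 higher. Skeletal muscle markers summed to at most 7.22 CPM in any of the 4 libraries, with Myod1, Myf5, Myog, Pax7 and Myh3 at 0. Adipocyte markers summed to 43.7 and 40 CPM against 48.2 and 50.2 CPM, with Plin1, Cidec and Lep at 0. Of 4 tested members 2 were higher, among them Fabp4 (8.87 and 6 CPM against 30.6 and 30.9 CPM). The 1 lower member was Pparg (32 and 31.4 CPM against 13 and 15.2 CPM). Fewer cells of a type and less RNA per cell cannot be told apart in these bulk samples, and the part of cell makeup in the contractile, matrix and Hox differences was not tested.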

How the data were processed

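The authors deposited raw counts, whole numbers of reads per RefSeq transcript, in 31055 rows for 8 labelled libraries. TopHat2 2.0.9, bedtools and the build mm9 appear in the submitters' processing notes, with no roles. Strand handling, filters and the counting of reads with several matches were not given in the sources used here. Every row carried a gene symbol. Another 4 columns matched no labelled sample and were left aside. Of 23366 symbols, 4447 had several rows, which can repeat the same reads, so 1 row stood for each symbol, the one whose counts summed highest across the 8 libraries. Chromosomes and promoters came from RefSeq tables of GRCm38.p6, and 23301 symbols had a chromosome.

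Counts were tested with edgeR 4.0.16 (R 4.3.3): TMM scaling, the filterByExpr filter, and a model of all 8 libraries with a coefficient for each group, which left 4 residual degrees of freedom. Genes were tested by quasi-likelihood F test with Benjamini-Hochberg adjustment over 14418 genes at 0.05. To obtain each SE, the size of the log2 fold change was divided by the root of F. The fit was tested on simulated data. A fold against a group at 0 is a lower bound from 3 counts per library, and ratios over 1 to 6 counts carry 95% Clopper-Pearson intervals; both cover counting error only.

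Named genes were autosomal: the 12 largest rises and 12 largest falls with at least 10 CPM in the higher group and groups that did not overlap, up to 4 called genes in each direction per list, and a set of genes picked for the study's question. Sex-linked genes were read only to check the labels, and other Hox genes, genes with a promoter match and marker genes are given as members of their set, outside this rule. The members and the 43 lists were chosen with earlier results of these data known. Lists were counted, not tested. Some items that the rule covers are not reported here. Alternatives were DESeq2 1.42.0, library totals, other filters, summed rows, no X and Y genes, a replicate block, leaving out each starved library, and the 4 starved libraries alone. Leaving chromosomes 1, 7 and 8 out of counts was added after seeing the data.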

Additional observations from a re-analysis of the deposited data

Results flagged for a closer look

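For 16 of 41 genes examined, the KO-labelled against WT effect differed between starved and fed cells by at least 1 on the log2 scale with an adjusted p under 0.05 in edgeR's interaction test, beside 15.4% of all genes that passed both limits with a higher effect when starved and 6.57% with a lower one. Values are starved minus fed. The 41 genes include those named for the largest starved effects, and the starved effect is part of this difference. The count of 16 therefore cannot be weighed against the shares of all genes. A lower effect when starved was found for Kdm3a (-1.43) and for the autophagy genes Sqstm1 (-1.13), Tfeb (-1.16), Atg14 (-1.53) and Fam134b (-1.45). It was also lower for the interferon genes Oas1a (-2.17) and Isg15 (-1.88), where the gap between the labels was large in both conditions, and for Hoxd13 (-1.31). A wider gap when starved, with KO-labelled cells lower, gave Wnt10b (-2.77), Adcy1 (-2.81), Wbscr17 (-3.34) and Megf10 (-2.33). The effect was higher when starved for Hoxb9 (3.14), Acta2 (2.38) and Tagln (1.02), whose levels were lower in KO-labelled cells in both conditions. For Col1a1 (2.94) the direction of the gap turned between fed and starved cells. Some of these sizes rest on few counts in 1 group. Starved KO-labelled libraries held 0 and 1 counts of Wnt10b and 4 and 4 of Adcy1. Starved WT libraries held 5 and 2 counts of Oas1a and 13 and 2 of Hoxd13, and Hoxb9 stood at 0.0324 and 0.0994 CPM in fed KO-labelled libraries. The SE of the difference was 0.87 for Wnt10b and 0.8 for Oas1a, against 0.035 for Acta2.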

How the results depend on the processing

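The counts of genes higher, lower, fed and differing between the conditions stayed within 1.5 times their values under the 12 alternatives listed with the processing that apply to them, with 2 exceptions: genes higher by more than 2-fold numbered 1939 with at least 5 CPM in 2 libraries (fewer genes tested), and genes lower by more than 2-fold numbered 1151 with library totals, which shift every gene upward. Leaving out 1 starved library gave 5417 to 5747 genes higher and 5151 to 5645 lower. Of 279 named genes, 267 kept direction and call under all 12. With library totals Jak2 became 0.02, Ifnar2 0.18, Psmb10 0.10 and Mbtps1 (chromosome 8) 0.0078, and 401 calls among all genes turned direction. Replicate numbers are shared by the groups. Deviations of same-numbered samples correlated across genes at r = -0.0189 to 0.0141, so no strong shared deviation was seen. With 2 libraries a group this cannot tell whether the cultures were paired. With the replicate number as a block, 5952 genes were higher and 5378 lower. Depth limits genes under 3 counts, or 0.0567 to 0.0921 CPM in starved libraries, and 2 libraries a group limit the estimate of spread. Residual spread was shared with the fed groups.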
